A study of Hordeum vulgare with 12 samples.

Results

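Zeocin lowered the RNA of 4 genes, grouped here as mitotic, in root apices of the barley ATR mutant hvatr.g. MAD2 was 2.23-fold lower, the gene named CDKB2;2 after a kinase was 4.93-fold lower, TORTIFOLIA1 5.93-fold lower and the cyclin gene CYCB1;2.C 9.21-fold lower. In WT, the cyclin and the kinase gene fell 3.00-fold and 3.05-fold, whereas MAD2 (1.72-fold lower) and TORTIFOLIA1 (1.96-fold lower) did not pass both thresholds of the test. An edgeR test of whether the zeocin response differed between the genotypes passed for none of the 4 genes. Under zeocin, the cyclin gene and TORTIFOLIA1 were lower in hvatr.g than in WT, by 2.50-fold and 2.55-fold, while the kinase gene and MAD2 lay at overlapping levels in the 2 genotypes. The 4 genes were taken by their identifiers from a table of 83990 rows that covers 81687 genes. Each has 1 row, and each passed the filter on low counts that left 26039 genes to test.

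The libraries were made from poly(A) RNA of dissected root apical meristems, with 3 libraries in a group. The study's methods call them biological replicates, prepared like samples that each held the meristems of 1 plant. The groups were hvatr.g with zeocin, hvatr.g with mock treatment, WT with zeocin and WT with mock treatment. All plants were grown from isolated embryos for 7 days and then kept for 6 h in liquid medium with 500 µg/ml zeocin or with 0 µg/ml (mock). Zeocin is an antibiotic of the bleomycin family that causes single-strand and double-strand breaks in DNA, of which most are single-strand breaks. WT is cultivar Sebastian, and hvatr.g is a TILLING allele of the same cultivar that affects the checkpoint kinase ATR, so it stands for a single mutant line.

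Plant cells enter mitosis when B-type cyclins activate cyclin-dependent kinases, among them the B-type kinases that are particular to plants. Microtubules then form the spindle, and the spindle assembly checkpoint holds the cell until every chromosome is attached to it. After DNA breaks, checkpoint kinases such as ATR delay entry into mitosis, and root meristems, where many cells divide, are a usual place to study this arrest.

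CYCB1;2.C (HORVU.MOREX.r3.3HG0295540, chromosome 3H) carries the name of a B-type mitotic cyclin, and the study's annotation describes its product as a cyclin. CDKB2;2 (HORVU.MOREX.r3.4HG0384440, chromosome 4H) is named after the plant-specific kinases that act from late interphase into mitosis. The same annotation, however, describes its product as importin subunit beta-1, a nuclear transport factor, so the name and the description of this gene do not match, and its identity was not checked against a sequence here. It is called the kinase gene below by its name alone. MAD2 (HORVU.MOREX.r3.2HG0176870, chromosome 2H) is described as a mitotic spindle checkpoint protein, the signal that restrains the anaphase-promoting complex while chromosomes are unattached. TORTIFOLIA1 (HORVU.MOREX.r3.5HG0505730, chromosome 5H) is described as a microtubule-associated protein. In Arabidopsis its namesake binds cortical microtubules, and its loss twists organs.

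Total counts per library ran from 36100439 to 74699245, a ratio of 2.07, and the 4 genes had 101 to 5974 counts in a library. Levels are given as CPM, counts scaled by library size and by TMM, a factor that evens out differences in composition between libraries. CPM is not divided by transcript length, so levels are compared between groups for 1 gene and not between genes. A gene was called on 2 conditions, a Benjamini-Hochberg adjusted p below 0.05 in edgeR's quasi-likelihood test over all 12 libraries, and a log2 fold change of 1 or more up or down. No exact test of 3 libraries against 3 can give a p under 0.1, so every p comes from the fit across all genes. ATR itself was at 17.8, 14.3 and 15.2 CPM in zeocin-treated and 20.5, 15.4 and 13.1 CPM in mock-treated hvatr.g, against 11.4, 13.9 and 9.68 CPM in zeocin-treated and 13.3, 15.4 and 9.85 CPM in mock-treated WT. The genotypes overlapped after mock treatment, and under zeocin every hvatr.g library lay above every WT library without passing the thresholds (log2 fold change 0.43, edgeR adjusted p = 0.183). The RNA level of a TILLING allele does not check the label. The labelled tissue was not checked against markers, because the row identifiers were not matched to marker genes here.

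The level of CYCB1;2.C was 8.34, 9.80 and 3.5 CPM in zeocin-treated hvatr.g, against 79.2, 60.9 and 59.5 CPM in mock-treated hvatr.g. In WT it was 20.0, 12.5 and 21.7 CPM after zeocin, against 56.5, 57.3 and 48.7 CPM after mock treatment. The 4 groups did not overlap, in the order zeocin-treated hvatr.g, zeocin-treated WT, mock-treated WT and mock-treated hvatr.g from low to high. How many tested genes share this order was not counted. The lowest of all was replicate 3 of zeocin-treated hvatr.g, with 138 counts.

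CDKB2;2 was at 7.12, 6.42 and 4.86 CPM in zeocin-treated hvatr.g, against 37.9, 25.7 and 27.2 CPM in mock-treated hvatr.g. In WT its levels were 6.73, 6.86 and 6.86 CPM after zeocin, against 18.4, 26.1 and 18.0 CPM after mock treatment. Zeocin thus separated the treatments in both genotypes and left the genotypes overlapping. The 3 zeocin-treated WT libraries were nearly equal (6.82 ± 0.0789 CPM, SD, n = 3), and the mock-treated groups overlapped because replicate 2 of mock-treated WT lay above replicate 2 of mock-treated hvatr.g.

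MAD2 stood at 15.7, 16.5 and 13.7 CPM in zeocin-treated hvatr.g, against 35.1, 30.8 and 36.3 CPM in mock-treated hvatr.g. In WT it had 13.4, 14.3 and 18.4 CPM after zeocin, against 22.7, 26.6 and 30.2 CPM after mock treatment. All zeocin-treated libraries lay below all mock-treated ones. The share of tested genes with this pattern over both genotypes was not counted. Within a genotype it was 14.1% in hvatr.g and 7.58% in WT. The zeocin-treated groups had nearly equal means, 15.3 ± 1.45 CPM in hvatr.g and 15.4 ± 2.67 CPM in WT (SD, n = 3 each), whereas every mock-treated hvatr.g library lay above every mock-treated WT library.

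TORTIFOLIA1 had 3.13, 4.53 and 2.56 CPM in zeocin-treated hvatr.g, against 26.2, 17.9 and 16.3 CPM in mock-treated hvatr.g. In WT it had 8.72, 5.62 and 11.7 CPM after zeocin, against 18.4, 18.3 and 14.4 CPM after mock treatment. Zeocin-treated hvatr.g was lowest, with zeocin-treated WT next and no overlap between them, and the mock-treated groups overlapped above. The zeocin-treated WT libraries ran from 5.62 CPM (204 counts) in replicate 2 to 11.7 CPM (460 counts) in replicate 3.

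**Figure D1:**
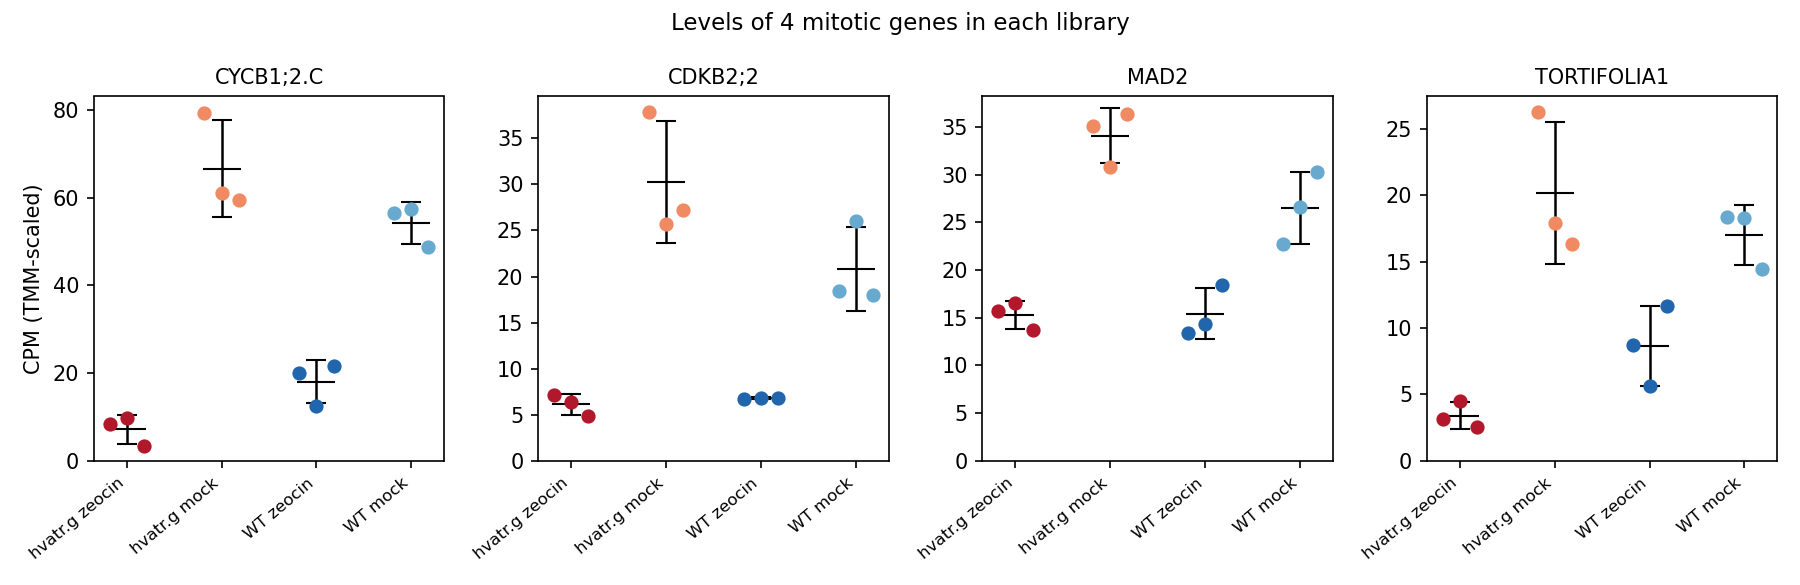
TMM-scaled CPM of the cyclin gene, the kinase gene, MAD2 and TORTIFOLIA1 in the 12 libraries, with 1 point for each library and the mean ± SD of 3 libraries in black. Zeocin-treated libraries lie below the mock-treated libraries of their genotype in every panel, and zeocin-treated hvatr.g lies wholly below zeocin-treated WT for the cyclin gene and TORTIFOLIA1 but not for the others.

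Zeocin treatment of hvatr.g addresses the response to DNA breaks where ATR is affected. All 4 genes fell past both thresholds, against a background of 2.15% of tested genes called lower. The study named MAD2 and TORTIFOLIA1 as lowered only in hvatr.g and the cyclin and kinase genes as lowered in WT, all from these libraries. The count is therefore no independent evidence. The log2 fold change was -3.20 for the cyclin gene (standard error 0.32, edgeR adjusted p = 6.77e-05) and -2.30 for the kinase gene (standard error 0.20, edgeR adjusted p = 2.92e-05). It was -2.57 for TORTIFOLIA1 (standard error 0.29, edgeR adjusted p = 0.000148) and -1.15 for MAD2 (standard error 0.15, edgeR adjusted p = 0.000386). For each gene the treated libraries lay below the mock-treated ones, a pattern that 14.1% of all tested genes showed. The calls held in each of the 20 alternatives, leaving out any 1 library included. In bulk RNA, fewer dividing cells in the meristem and less RNA of these genes in each cell cannot be told apart.

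In WT, the same comparison called the cyclin and the kinase gene lower, 2 of the 4 genes, against 0.902% of tested genes. The study named the genes by this same split in these libraries, so it is no independent evidence. The log2 fold change of the cyclin gene was -1.58 (standard error 0.30, edgeR adjusted p = 0.0127), and that of the kinase gene was -1.61 (standard error 0.20, edgeR adjusted p = 0.000869). MAD2 passed the p threshold (edgeR adjusted p = 0.0125). In this direction 1.59% of tested genes did so, those past the fold threshold included. The log2 fold change of MAD2, -0.78 (95% interval -1.11 to -0.46), was under the threshold of 1. TORTIFOLIA1 had a log2 fold change of -0.97 (95% interval -1.58 to -0.37) and passed neither threshold (edgeR adjusted p = 0.0996). At almost the same fold it passed on p with DESeq2 (adjusted p = 0.0185) and in edgeR without the filter on low counts (edgeR adjusted p = 0.0388). For all 4 genes the zeocin-treated WT libraries nonetheless lay below the mock-treated ones, as for 7.58% of tested genes.

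The WT calls rested on single libraries more than those in hvatr.g. The cyclin gene missed the p threshold when any of 3 particular WT libraries was left out. Its log2 fold change was -1.66 (edgeR adjusted p = 0.0547) without replicate 1 of the zeocin group, -1.37 (edgeR adjusted p = 0.0549) without replicate 2 of that group, and -1.54 (edgeR adjusted p = 0.0501) without replicate 2 of the mock group. TORTIFOLIA1 passed both thresholds when zeocin-treated WT replicate 3, its highest library after zeocin, was left out (log2 fold change -1.25, edgeR adjusted p = 0.0376). MAD2 no longer passed on p when replicate 1 (edgeR adjusted p = 0.0744) or replicate 2 (edgeR adjusted p = 0.0541) of the zeocin group was left out, nor when the 6 WT libraries were fitted by themselves (edgeR adjusted p = 0.0877). The kinase gene kept its call in all 20 alternatives.

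Without zeocin, none of the 4 genes was called between the genotypes, while 3.87% of tested genes were called higher and 4.58% lower in hvatr.g. The log2 fold changes of hvatr.g against WT were 0.54 for the kinase gene (edgeR adjusted p = 0.0803) and 0.36 for MAD2 (edgeR adjusted p = 0.126), and these 2 had an unadjusted p under 0.05, as did 28.8% of tested genes. They were 0.30 for the cyclin gene (edgeR adjusted p = 0.564) and 0.24 for TORTIFOLIA1 (edgeR adjusted p = 0.617). In none of the 19 alternatives, DESeq2 and limma-voom among them, was any of the 4 called. All 4 values were thus above 0, beside a median of 0.02 over all tested genes. For the cyclin gene and MAD2 every hvatr.g library lay above every WT library, which 17.2% of tested genes also showed. Replicate 1 of mock-treated hvatr.g, the deepest library with 74699245 counts, was the highest of its group for all of the 4 but MAD2, and without it the log2 fold change of TORTIFOLIA1 was 0.01. The kinase gene reached an edgeR adjusted p of 0.0325 without mock-treated WT replicate 2, at a log2 fold change of 0.73, still under the threshold of 1.

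Under zeocin the genes differed in how the genotypes compared. The cyclin gene and TORTIFOLIA1 were called lower in hvatr.g, 2 of the 4 genes against a background of 5.56%, with log2 fold changes of -1.32 (standard error 0.31, edgeR adjusted p = 0.0132) and -1.35 (standard error 0.29, edgeR adjusted p = 0.00852). The libraries of the 2 genotypes did not overlap for either gene, as for 19.4% of tested genes. The study named TORTIFOLIA1 as lowered only in hvatr.g in these same libraries, so the count and the lack of overlap are no independent evidence. The call of the cyclin gene depended on zeocin-treated hvatr.g replicate 3, without which the log2 fold change was -0.996 (edgeR adjusted p = 0.0213). For the kinase gene the log2 fold change was -0.15 (95% interval -0.58 to 0.28), and for MAD2 it was -0.01 (95% interval -0.34 to 0.32). These intervals leave out a difference of 2-fold in either direction and leave room for smaller ones.

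**Figure D2:**
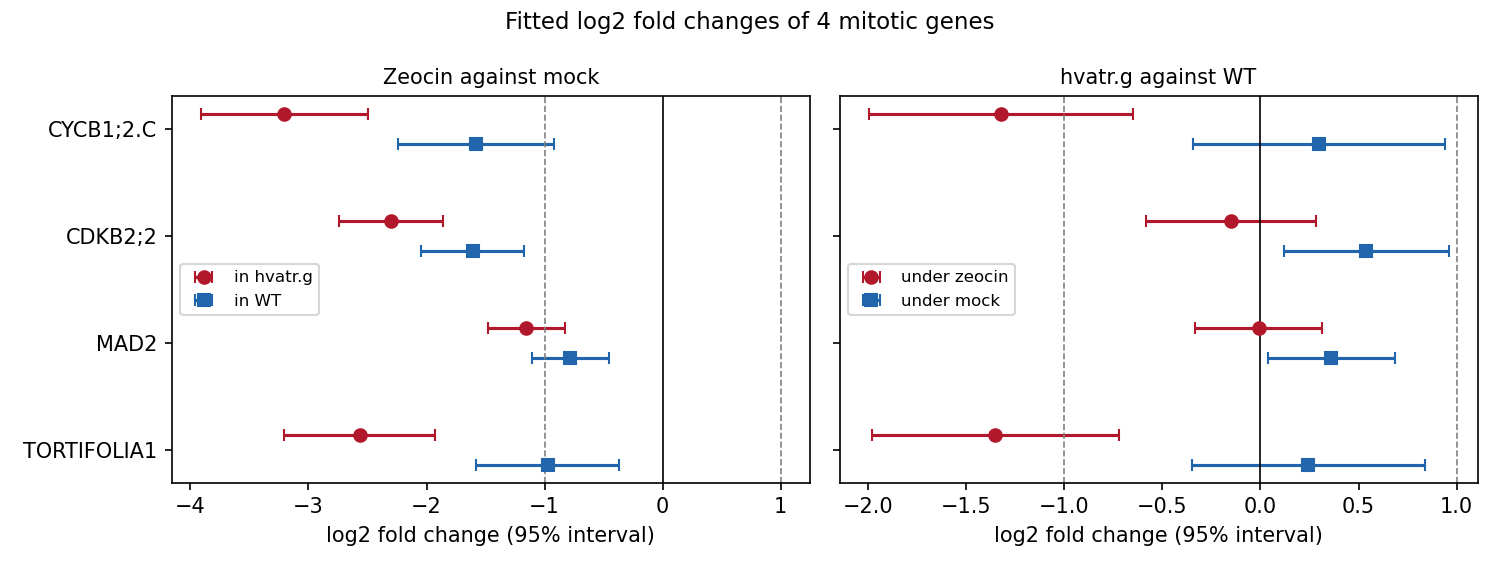
Fitted log2 fold changes of the 4 genes with 95% intervals, for zeocin against mock treatment (left) and hvatr.g against WT (right), with dashed lines at the fold threshold of 1 on the log2 scale. After zeocin the hvatr.g point lies left of the WT point for each gene, and under zeocin the genotype difference is near 0 for the kinase gene (-0.15) and MAD2 (-0.01) but not for the cyclin gene (-1.32) and TORTIFOLIA1 (-1.35).

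Whether the zeocin response itself differed between the genotypes was tested as an interaction. The response in hvatr.g minus that in WT was -1.62 on the log2 scale for the cyclin gene (95% interval -2.55 to -0.69) and -1.59 for TORTIFOLIA1 (95% interval -2.46 to -0.73). For the kinase gene it was -0.69 (95% interval -1.29 to -0.09), and for MAD2 it was -0.37 (95% interval -0.83 to 0.09). The unadjusted edgeR p, in a model fitted across all genes, was 0.0025 for the cyclin gene, 0.00166 for TORTIFOLIA1, 0.0281 for the kinase gene and 0.102 for MAD2. After Benjamini-Hochberg adjustment none passed, with an edgeR adjusted p of 0.486 for the cyclin gene, 0.442 for TORTIFOLIA1 and 1 for the others. Thus MAD2 and TORTIFOLIA1, past both thresholds in hvatr.g and not in WT, were not shown by this test to respond differently in the 2 genotypes. The study had named these 2 genes by that same split in these libraries, so their p values in this contrast are no independent evidence.

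No gene at all passed the interaction test in edgeR, and 4.3% of the tested genes, 1120, had an unadjusted p under 0.05. DESeq2 called 16 genes higher and 99 lower in this contrast, and TORTIFOLIA1 was among them (log2 difference -1.58, DESeq2 adjusted p = 0.0307), while the cyclin gene had a DESeq2 adjusted p of 0.053. Limma-voom called 1 gene higher, and edgeR without the filter on low counts called 4 higher and 29 lower. Across the 19 alternatives TORTIFOLIA1 had an adjusted p between 0.0307 and 0.898, and the cyclin gene between 0.053 and 0.948.

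Counts of 2 genes in the same library can be divided by each other, which needs no scaling between libraries. Set against MAD2, the cyclin gene had a ratio of 0.460 ± 0.180 in zeocin-treated and 1.96 ± 0.309 in mock-treated hvatr.g, and of 1.18 ± 0.308 in zeocin-treated and 2.08 ± 0.443 in mock-treated WT (SD, n = 3 each). The ratio was lower after zeocin in both genotypes without overlap, and lowest in zeocin-treated hvatr.g. The kinase gene behaved otherwise, with a ratio of 0.399 ± 0.0509 in zeocin-treated and 0.888 ± 0.171 in mock-treated hvatr.g, against 0.451 ± 0.0689 and 0.796 ± 0.192 in zeocin-treated and mock-treated WT. It was lower after zeocin in both genotypes, with the zeocin-treated genotypes overlapping. How many tested genes separate the groups by their ratio to MAD2 was not counted.

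TORTIFOLIA1 differed again. Its ratio to MAD2 was 0.220 ± 0.0470 in zeocin-treated and 0.592 ± 0.149 in mock-treated hvatr.g, a range of 0.187 to 0.274 against 0.449 to 0.747. In WT the ratio was 0.558 ± 0.144 after zeocin and 0.658 ± 0.169 after mock treatment, and these ranges, 0.392 to 0.649 and 0.477 to 0.811, overlapped. Relative to MAD2, TORTIFOLIA1 was therefore set apart from the other groups in zeocin-treated hvatr.g alone. MAD2 itself was lower after zeocin, 1.72-fold in WT and 2.23-fold in hvatr.g, so a ratio to it does not show the whole fall. In CPM, the zeocin-treated WT libraries of TORTIFOLIA1 lay below the mock-treated ones, as for 7.58% of tested genes. The size of such a ratio depends on the lengths of both transcripts, so only its differences between groups are read. These differences were not tested or set against those of other genes.

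**Figure D3:**
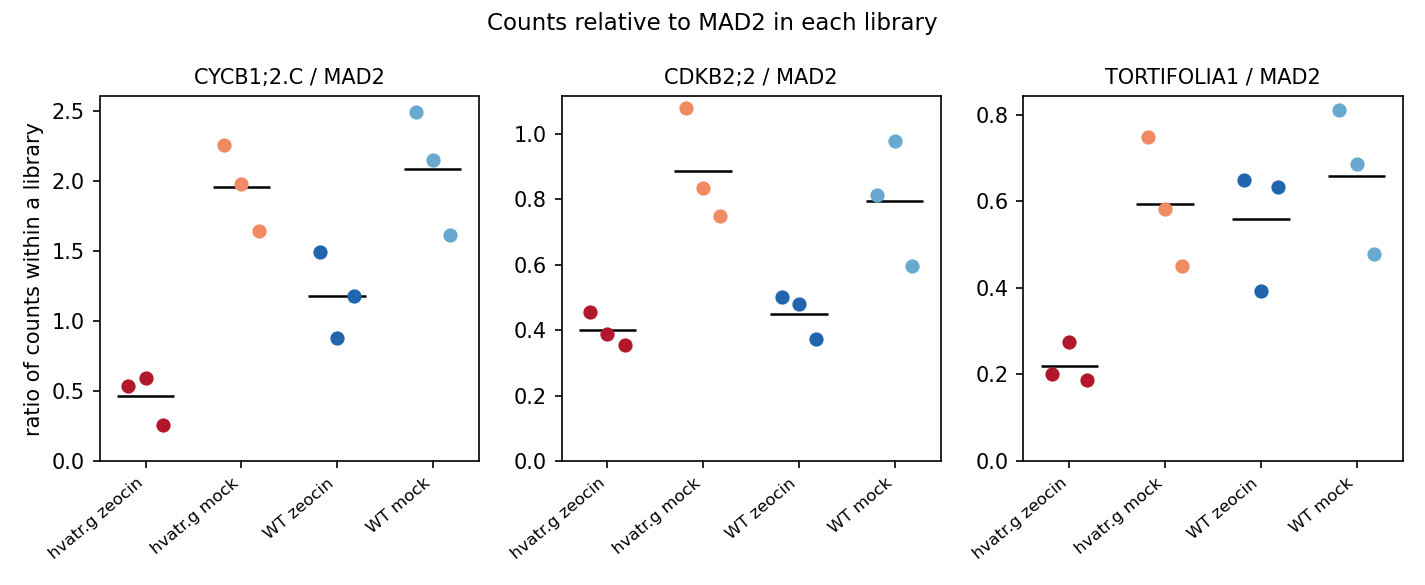
Counts of the cyclin gene, the kinase gene and TORTIFOLIA1 divided by those of MAD2 in the same library, with 1 point for each of the 12 libraries and a line at the mean of each group of 3. The TORTIFOLIA1 ratio lies between 0.187 and 0.274 in zeocin-treated hvatr.g and between 0.392 and 0.811 in the other 3 groups. MAD2 itself was lower after zeocin in both genotypes.

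Across the 12 libraries the log2 CPM of the 4 genes moved together, with Pearson correlations from 0.831 for MAD2 and TORTIFOLIA1 to 0.98 for the cyclin gene and TORTIFOLIA1. Taken as deviations from the group means, the correlation was 0.818 for the cyclin gene and TORTIFOLIA1 and 0.613 for the cyclin and the kinase gene, and it was lowest, 0.286, for the kinase gene and MAD2. Replicate 3 of zeocin-treated hvatr.g was the lowest of its group for all 4 genes. These 12 points share the 4 groups, and each library's depth and scaling enter both genes of a pair, so no p is attached.

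The genes whose levels followed each member most closely over the 12 libraries also differed. For the cyclin gene they were HORVU.MOREX.r3.2HG0142680 of the TPX2 family of spindle proteins, the RP/EB family microtubule-associated protein HORVU.MOREX.r3.1HG0047290, and another cyclin gene, CYCB1;3.B (Pearson correlation 0.998 each). All 3 of these were called lower by zeocin in both genotypes, and 230 genes in all reached a correlation of at least 0.95 with it. For TORTIFOLIA1 they were a Tubby-like F-box protein (HORVU.MOREX.r3.6HG0569480, 0.993), a kinesin-like protein (HORVU.MOREX.r3.5HG0511950, 0.991) and a carbamoyl-phosphate synthase large chain (HORVU.MOREX.r3.4HG0385140, 0.988). These 3 were called lower by zeocin in WT as well, with log2 fold changes from -1.62 to -1.59, where TORTIFOLIA1 itself had -0.97.

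For the kinase gene the closest were HORVU.MOREX.r3.4HG0397100, described as the membrane fusion protein SNAP33 (0.994), a protein kinase (HORVU.MOREX.r3.5HG0478260, 0.992) and a myosin (HORVU.MOREX.r3.5HG0446850, 0.985). None of these 3 was called between the genotypes under zeocin, where their log2 fold changes ran from -0.25 to -0.16, beside -0.15 for the kinase gene. MAD2 was followed most closely by a histone H2A gene (HORVU.MOREX.r3.5HG0446810, 0.985), an undescribed gene (HORVU.MOREX.r3.2HG0150740, 0.980) and a dnaJ chaperone (HORVU.MOREX.r3.6HG0573240, 0.980). Their genotype differences under zeocin were also near 0, from -0.05 to 0.04. Since these genes were chosen for their likeness to a member over all libraries, their values describe that choice.

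Other genes of cell division give the setting for the 4. Of 10 further cyclin and kinase genes, 10 were called lower by zeocin in hvatr.g and 6 in WT, with medians of -2.85 and -1.47 on the log2 scale beside 0.00 over all tested genes in either genotype. The share of all tested genes called lower was 2.15% in hvatr.g and 0.902% in WT. Under zeocin, 7 of the 10 were called lower in hvatr.g than in WT, against 5.56% of tested genes, with a median of -1.13. Without zeocin none was called, against 3.87% of tested genes called higher and 4.58% lower. The study chose this list from genes lowered in these libraries, so its direction is no independent evidence. The relatives nearest by name had log2 fold changes of -2.43 in hvatr.g and -1.43 in WT for CYCB1;2.A, of -2.98 and -1.17 for CYCB1;2.B, and of -2.55 and -1.24 for CDKB1;2, and all of these were called. The kinase relative was also called lower in hvatr.g than in WT under zeocin (log2 fold change -1.01, edgeR adjusted p = 0.0192), where CDKB2;2 was not called.

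The spindle and microtubule list, chosen by the study in the same way, holds 12 genes, of which 12 were called lower by zeocin in hvatr.g (median -2.37) and 7 in WT (median -1.23). The gene of this list that stands apart, with a log2 fold change of -2.03 in hvatr.g and 1.19 in WT (edgeR adjusted p = 0.247), is described as microtubule-associated protein 65-1 and was picked out after its values were seen. It was called higher in hvatr.g than in WT without zeocin (log2 fold change 5.26, edgeR adjusted p = 4.79e-05) and under zeocin (log2 fold change 2.05, edgeR adjusted p = 0.00671), the 1 gene of this list with such a call, whereas 5 others were called lower in hvatr.g under zeocin. BUBR1, a checkpoint protein that acts with MAD2 at unattached chromosomes, had log2 fold changes of -2.02 in hvatr.g and -1.12 in WT and was called in both, whereas MAD2 missed the fold threshold in WT. Of 21 kinesin genes, motor proteins of which several work in the spindle, 21 were called lower in hvatr.g (median -1.89) and 15 in WT (median -1.48). Of 10 genes under the study's term for the mitotic cell cycle, 10 were called lower in hvatr.g (median -2.20) and 5 in WT (median -1.01). Over all tested genes, zeocin lowered 2.15% past both thresholds in hvatr.g and 0.902% in WT, and 5.56% were called lower in hvatr.g than in WT under zeocin. The genes of these lists overlap in part, and they too were taken from genes lowered here, so their counts are no independent evidence.

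A list of cell cycle genes that the study drew up by homology, without regard to these libraries, looked different. Of its 19 genes 9 had enough counts to test, with medians of -0.16 in hvatr.g and -0.01 in WT. The untested ones were CDC2.A and copies named PCNA2. None of the 9 tested genes is named as a B-type cyclin, a B-type kinase, a kinesin or a spindle protein. The list therefore cannot show whether such genes fell. Of these 9, 2 were called lower by zeocin in each genotype, against 2.15% of tested genes in hvatr.g and 0.902% in WT. The 2 genes, named here after their values were seen, were FAS1, a subunit of the histone chaperone that assembles chromatin behind the replication fork, and PCNA2.I, named after the sliding clamp of DNA replication. WEE1, a kinase that restrains entry into mitosis, had log2 fold changes of -0.07 in hvatr.g and 0.08 in WT. For CDC2.B, named after the main cyclin-dependent kinase, they were -0.16 and 0.01, and CDC2.A had at most 1 count in any library and was not tested.

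**Figure D4:**
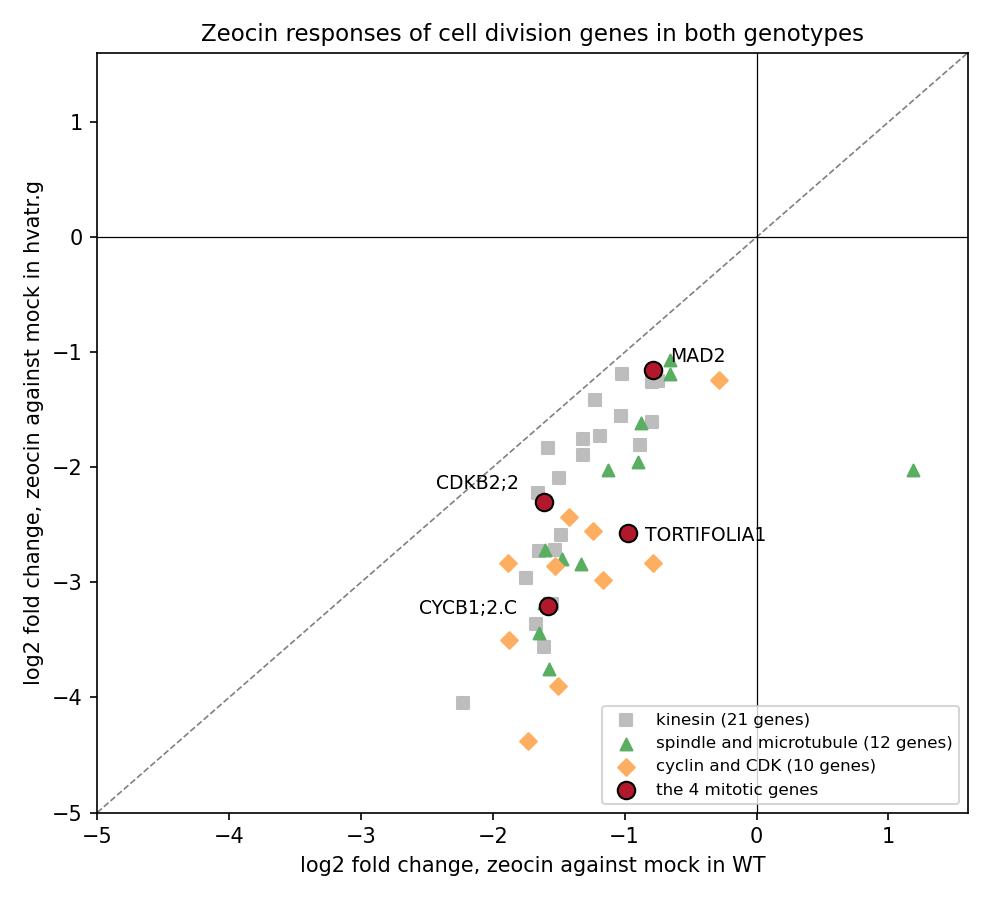
Fitted log2 fold changes of zeocin against mock treatment in hvatr.g (vertical axis) and in WT (horizontal axis) for the 4 genes and for the kinesin, the spindle and microtubule, and the cyclin and kinase lists, with a dashed line where both are equal. All 43 list genes and the 4 genes lie below the line, with MAD2 nearest to it among the 4. The list genes and the 4 genes were chosen from genes lowered in these libraries, so their place below the line is no independent evidence. No gene passed the edgeR test of a difference between the responses.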

How the data were processed

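Per the labels and the study's methods, the authors trimmed read pairs, mapped them with HISAT2 2.1.0 to the Morex v3 genome and counted them on transcript models with Subread 1.5.2. They deposited raw counts, 1 column for each of the 12 libraries. How strand, read pairs and multi-mapping reads were counted is not given in the sources used here, so reads shared with similar copies cannot be separated.

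Counts were analysed in R 4.3.3 with edgeR 4.0.16 (filterByExpr, TMM, glmQLFit with 4 group means, glmQLFTest and Benjamini-Hochberg adjustment over 26039 genes). Standard errors restate F on the log2 scale, and 95% intervals use the t quantile of the fit. Log2 CPM used a prior count of 2. DESeq2 1.42.0 and limma 3.58.1 served as alternatives, and figures were drawn in Python 3.11.15 with matplotlib 3.10.9. The fits were tested on simulated data. Total counts of 36100439 to 74699245 leave counting error small for genes with over 100 counts. No library was a copy of another (chi-square per gene of 11.8 to 59.0 within groups).

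The members and lists were chosen with earlier results of these data known. Genes named are the 4 members, ATR, the relatives and list genes given by name, and the 3 genes with the highest correlation with each member. Libraries of the same replicate number deviated together in WT, with correlations of 0.312, 0.382 and 0.543 between zeocin and mock treatment. In hvatr.g they did not do so throughout (0.177, 0.0268 and 0.175). Between genotypes, libraries of the same number had correlations from -0.0577 to 0.274, and libraries of different numbers were not compared. The numbers may pair the WT libraries, but this check does not show it. The main fit used group means without pairing, with a replicate block as an alternative.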

Additional observations from a re-analysis of the deposited data

How the results depend on the processing

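Of 388 recomputed log2 fold changes of the 4 genes, 377 kept their direction and their side of the thresholds. MAD2 in hvatr.g against WT under zeocin, near 0 throughout, changed sign with scaling by library size only (0.082), with the replicate block (0.00554) and without 1 library (-0.088 to 0.14 over these). Leaving out 1 library each gave 1 to 3 of the 4 genes called in WT, with CYCB1;2.C from -1.73 to -1.37 and TORTIFOLIA1 from -1.25 to -0.73, and 1 to 2 of them called between genotypes under zeocin, with CYCB1;2.C from -1.60 to -0.996. DESeq2 called 1 of the 4 genes in the interaction, TORTIFOLIA1 (-1.58). The cause was not tested.

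Fitted with a replicate block, the zeocin responses in WT were -1.57 on the log2 scale for CYCB1;2.C and -0.96 for TORTIFOLIA1, and with a block within each genotype, chosen after seeing the data, they were -1.61 and -1.02 (edgeR adjusted p = 0.0594), and the block changed no call. Scaling moved the median of all genes by under 0.1 on the log2 scale.

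Counts over all genes moved most for the interaction, which had 0 calls, 4 higher and 29 lower without the filter, 1 higher with limma-voom, 16 higher and 99 lower with DESeq2, and 1 lower without mock-treated hvatr.g replicate 1. In WT, 292 genes were called higher and 190 in a fit of the compared libraries alone, and 235 lower with 125 to 296 over the fits without 1 library. Under zeocin, 900 were called higher in hvatr.g, and 552 to 1006 without 1 library. The 4 genes had at least 101 counts in every library, and with 3 libraries in a group a call can turn on 1 of them.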
